A study of Mus musculus with 26 samples.

Results

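The 48 genes described here encode subunits of ATP-dependent chromatin remodellers, the machines that slide, eject or exchange nucleosomes. They were chosen by gene symbol, with earlier results of these data known. They fall into the BAF/PBAF family (22 genes), the ISWI family (6), the CHD ATPases (5) and the NuRD complex (8). The rest are the INO80, SRCAP and EP400 group (5) and 2 other ATPases, Hells and Atrx. The table of the deletion experiment listed all 48 of them among 19404 genes. The table of the knockdown experiment listed 47 of them, all but Smarca1, among 19719 genes.

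Each remodeller is built around 1 motor ATPase that burns ATP to move DNA along the histone octamer, with partner subunits that target the motor and set what it does. Mammalian BAF complexes use either Brg1, encoded by Smarca4, or its close paralog Brm, encoded by Smarca2, as the motor, never both in the same complex. In B cell progenitors Brg1 is known to be required for lineage genes, and loss of Brg1 in some cancer cells is known to make survival depend on Brm. The comparison asked which other remodeller genes differed where Smarca4 was depleted, and whether Smarca2 was among them.

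RNA was measured in cultured mouse pro-B cells of the C57/Bl6 strain, grown for 7 days from B220+ bone marrow with IL7 and SCF. ProB_ko cells (2 libraries) carried Brg1F/F x ER-Cre and ProB_ctrl cells (2 libraries) carried Brg1+/+ x ER-Cre, and both had 0.3 µM tamoxifen for the final 60 hours, so the recombinase and the drug were common to them. Rag1ko Brg1-sh cells (3 libraries) and Rag1ko ctrl-sh cells (3 libraries) were Rag1-/-, were infected with shRNA retrovirus on days 3 and 4, and were enriched with beads against hCD25. Whether libraries of 1 group derive from different mice is not given in the sources used here, so a p-value reflects library-to-library spread, possibly technical.

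The deposited values are the authors' group means in normalized reads, that is, reads divided by a library size factor, with the authors' own log2 fold change, p and adjusted p. A gene was called when its authors' adjusted p was under 0.05. Each mean of the deletion table could also be split into the whole reads of its 2 libraries, which held 11578641 and 8790619 reads in ProB_ko and 10763948 and 10216954 reads in ProB_ctrl. The split had 1 solution in both groups for 29 of the 48 members. For the other 19, mostly the most abundant, several splits fit, and the most balanced was taken, which gives the smallest spread between libraries and is named as such below. The libraries carry no replicate number and are called deeper and shallower. The knockdown means, of 3 libraries each, were not split, so those values have no spread.

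All 14 pro-B markers looked up were listed in both tables, and their summed mean was 92247 in ProB_ko and 62228 in ProB_ctrl normalized reads. Macrophage markers (9 of 10 listed) summed to 1463 in the deeper and 313 in the shallower ProB_ko library, against 429 in the deeper and 1941 in the shallower ProB_ctrl library. Neutrophil markers (11 of 11 listed) summed to 344 and 1712 in ProB_ko and to 4328 and 2839 in ProB_ctrl. Of these 11 markers 3 were called lower after deletion, against 0.742% of all listed genes. Of the 14 pro-B markers 1 was called higher, against 0.732% of all listed genes. In the knockdown, macrophage markers summed to 160 in Brg1-sh and 137 in ctrl-sh cells, and neutrophil markers to 200 and 231. The part of these cells in the differences below was not tested, and in bulk RNA fewer cells of a type and less RNA per cell cannot be told apart.

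The 250 bases before the RefSeq starts of the depleted ATPase gene, its paralog and the other ATPase gene that was called are shown first, because the results turn on these 3 genes. Sequences are from RefSeq on GRCm38.p6, the assembly of the files' mm10 build, and all 3 are on the plus strand. They lie at chr9:21615919-21616168 for Smarca4, at chr19:26604910-26605159 for Smarca2 and at chr19:38930740-38930989 for Hells. Capitals mark every match, on either strand, to 5 motifs. These were the E2F-type motif TTCCCGC, the NRF1-type motif GCGCATGC, the E-box letters CACGTG, the core letters TGGGAA of an Ikaros-type site, and the CCAAT box by its own name.
Smarca4: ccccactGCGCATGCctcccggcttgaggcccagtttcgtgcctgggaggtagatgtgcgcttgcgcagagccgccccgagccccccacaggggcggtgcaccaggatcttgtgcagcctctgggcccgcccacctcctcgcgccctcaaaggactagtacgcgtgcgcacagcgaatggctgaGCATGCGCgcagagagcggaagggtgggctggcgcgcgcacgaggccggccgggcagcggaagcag
Smarca2: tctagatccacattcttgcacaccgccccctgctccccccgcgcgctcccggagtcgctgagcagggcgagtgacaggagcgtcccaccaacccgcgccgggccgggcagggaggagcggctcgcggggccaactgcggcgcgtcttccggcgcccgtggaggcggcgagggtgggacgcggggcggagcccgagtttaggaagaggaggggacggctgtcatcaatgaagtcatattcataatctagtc
Hells: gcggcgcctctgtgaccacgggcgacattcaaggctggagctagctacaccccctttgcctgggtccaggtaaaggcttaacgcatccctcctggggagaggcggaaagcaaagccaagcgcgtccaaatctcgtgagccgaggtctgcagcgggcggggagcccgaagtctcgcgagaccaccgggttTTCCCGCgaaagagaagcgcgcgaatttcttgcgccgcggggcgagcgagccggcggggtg
The files place the starts of Smarca2 and Hells earlier than RefSeq, at 26605115 and 38930915, so the last 45 bases of the Smarca2 stretch and the last 75 of the Hells stretch lie within those genes by the files. GCGCATGC stood 2 times before the Smarca4 start. TTCCCGC stood 1 time in the Hells stretch, within the gene by the files' start, and none of the 5 motifs stood in the Smarca2 stretch. No motif match overlapped another in these 3 stretches. RefSeq starts were matched for 38 of the 48 members. TTCCCGC was found in 5 of the 38 (13.2%), against 3.84% of 27025 promoters of the same length, and GCGCATGC in 3 of the 38 (7.89%), against 2.32%. CACGTG was found in 4 (10.5%, against 6.05%), CCAAT in 11 (28.9%, against 34.5%) and TGGGAA in 3 (7.89%, against 21.5%). The members' stretches were rich in CG dinucleotides, with a median of 21 against 6 in all promoters. Motif matches were not compared at equal CG content and describe letters only.

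Smarca4 was the member with the largest difference in both experiments, and its level checks the labels. Smarca4 (ENSMUSG00000032187, mm10, chr9:21616169-21704230) had an authors' mean of 6067 normalized reads in ProB_ko and 17898 in ProB_ctrl. In the authors' deposited table it fell 2.95-fold (log2 fold change -1.56, adjusted p 0.0008). In the most balanced split the libraries held 4907 and 7226 normalized reads in ProB_ko, against 17684 and 18113 in ProB_ctrl. The groups were apart in that split, and the next most balanced split of the control mean puts its libraries further apart, by a factor of 1.604. Knockdown cells had a Smarca4 mean of 6743 with Brg1-sh and 13340 with ctrl-sh, and it fell 1.98-fold in the authors' deposited table (log2 fold change -0.98, adjusted p 0.0472). Reads from undeleted exons of a recombined allele would still count towards the gene, and the gene-level means do not separate them from reads of intact transcripts. Smarca4 is among the 24 members that the authors mark as confounded, a mark that is not explained in the sources used here, and leaving out marked genes removes its calls.

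Smarca2, the Brm gene and the only other BAF motor, was called in neither experiment. Its means were 536 in ProB_ko and 431 in ProB_ctrl, for which the authors' deposited table has a log2 fold change of 0.31 (unadjusted p 0.3935, adjusted p 1). Its split had 1 solution, with 670 normalized reads in the deeper and 401 in the shallower ProB_ko library, against 383 in the deeper and 478 in the shallower ProB_ctrl library. The shallower Brg1-deleted library thus lay inside the range of the controls, and the groups overlapped. limma on the recovered reads gave a log2 fold change of 0.28 ± 0.30 (SE, n = 2 each, adjusted p = 0.699), with a 95% interval of -0.48 to 1.03. That interval holds a fall as well as a 2-fold rise, and without the deeper ProB_ko library the value was -0.093. In each group Smarca2 was higher in the library with the higher macrophage sum, but across groups this order did not hold. The shallower ProB_ctrl library had the highest macrophage sum, 1941, with Smarca2 at 478. The deeper ProB_ko library had a sum of 1463, with Smarca2 at 670. The part of macrophages in these values was not tested.

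In knockdown cells the direction of Smarca2 was the other one. Its means were 202 with Brg1-sh and 269 with ctrl-sh, for which the authors' deposited table has a log2 fold change of -0.42 (unadjusted p 0.1301, adjusted p 1). Smarca2 was 1 of 4 members whose sign differed between the experiments, beside Chd1, Smarcb1 and Ep400, and the difference between the experiments was not tested. Per exon length, with the levels scaled to transcripts per 1000000 over all listed genes (TPM), Smarca2 stood at 19.3 TPM in ProB_ko and 14.6 TPM in ProB_ctrl, and at 8.06 TPM in Brg1-sh and 10.0 TPM in ctrl-sh cells. It was 14th of the 16 ATPase genes in both groups of the deletion experiment. The summed level of both BAF motors was 284 TPM in ProB_ko and 748 TPM in ProB_ctrl, and 334 TPM in Brg1-sh and 611 TPM in ctrl-sh cells. Smarca2 made up 6.79% of that sum in ProB_ko and 1.95% in ProB_ctrl, and 2.41% in Brg1-sh and 1.64% in ctrl-sh cells. These shares move with the level of Smarca4 as well as with that of Smarca2.

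**Figure D1:**
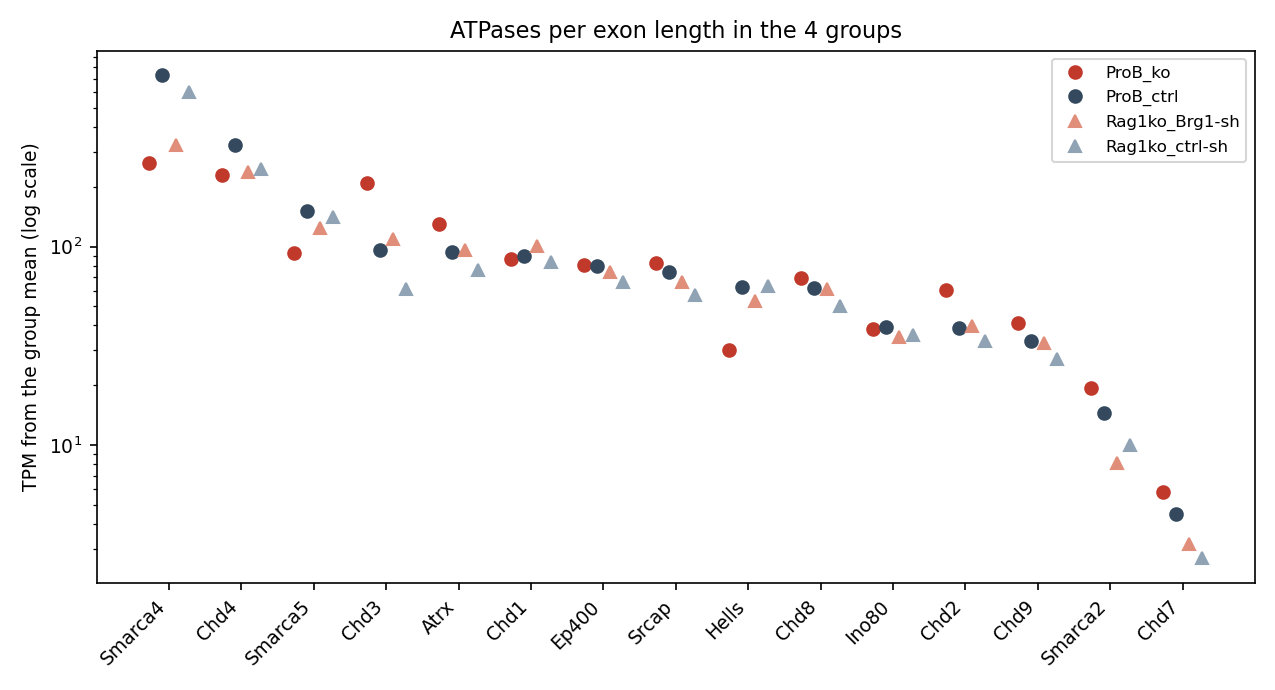
Levels of 15 ATPase genes in TPM computed from the authors' group means (log axis), 1 point per group, ordered by the level in ProB_ctrl; Smarca1, near 0 reads, is left out. By group mean Smarca4 is the highest ATPase gene in all 4 groups, at 265 TPM in ProB_ko and 734 TPM in ProB_ctrl. Smarca2 is among the lowest.

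By group mean, Smarca4 remained the most abundant ATPase transcript per length even where it was depleted, as the plot of ATPase levels shows. In ProB_ko it stood at 265 TPM, followed by the NuRD motors Chd4 at 228 TPM and Chd3 at 209 TPM. In ProB_ctrl it stood at 734 TPM, followed by Chd4 at 326 TPM and the ISWI motor Smarca5 at 152 TPM. Brg1-sh cells held 326 TPM of Smarca4 and 237 TPM of Chd4, and ctrl-sh cells 601 TPM and 247 TPM. The order of genes within a group was not tested, and in the most balanced split the ProB_ko libraries differed in it. Per base, Smarca4 lay just below Chd4 in the deeper library (4907 normalized reads over 6475 bases, against 6200 over 8019). In the shallower library it lay above, with 7226 against 6768 normalized reads. Reads from undeleted exons would count towards Smarca4 in ProB_ko. All listed members together made up 0.525% of the summed level in ProB_ko and 0.544% in ProB_ctrl, and 0.483% in Brg1-sh and 0.471% in ctrl-sh cells. In every group 45 members lay above the median gene, and Smarcd3, Smarca1 and Chd7 were among the lowest by level.

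Across the 48 members, 0 were called higher and 2 were called lower after deletion, Smarca4 and Hells, where 1.47% of all listed genes were called, 0.732% higher and 0.742% lower. After knockdown 0 were called higher and 1, Smarca4, was called lower, where 0.218% of all listed genes were called, 0.177% higher and 0.0406% lower. Genes with a mean of at least 200 normalized reads, the level of nearly every member, were called in 2.46% of cases after deletion and 0.325% after knockdown. At an unadjusted p under 0.05 in the authors' deposited table the deletion gave 3 higher (Chd3, Bcl7a and Arid1a) and 4 lower (Smarca4, Hells, Smarca5 and Ruvbl2). Those 7 of 48 stand beside 9.52% of all listed genes and 16.3% of those at a mean of 200 or more. In the knockdown Smarca4 alone had such a p, beside 2.74% of all listed genes and 3.81% of those at that level. The median log2 fold change of the members was 0.06 after deletion and 0.10 after knockdown, against -0.02 and -0.03 for the genes at that level. Of the members at that level, which leaves out Smarca1 and Smarcd3 in the deletion table and Smarcd3 and Chd7 in the knockdown table, 11 of 46 differed by over 1.5-fold after deletion (23.9%, against 26.5% of genes) and 2 of 45 after knockdown (4.44%, against 5.63%). These shares were close to those of genes of like level.

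**Figure D2:**
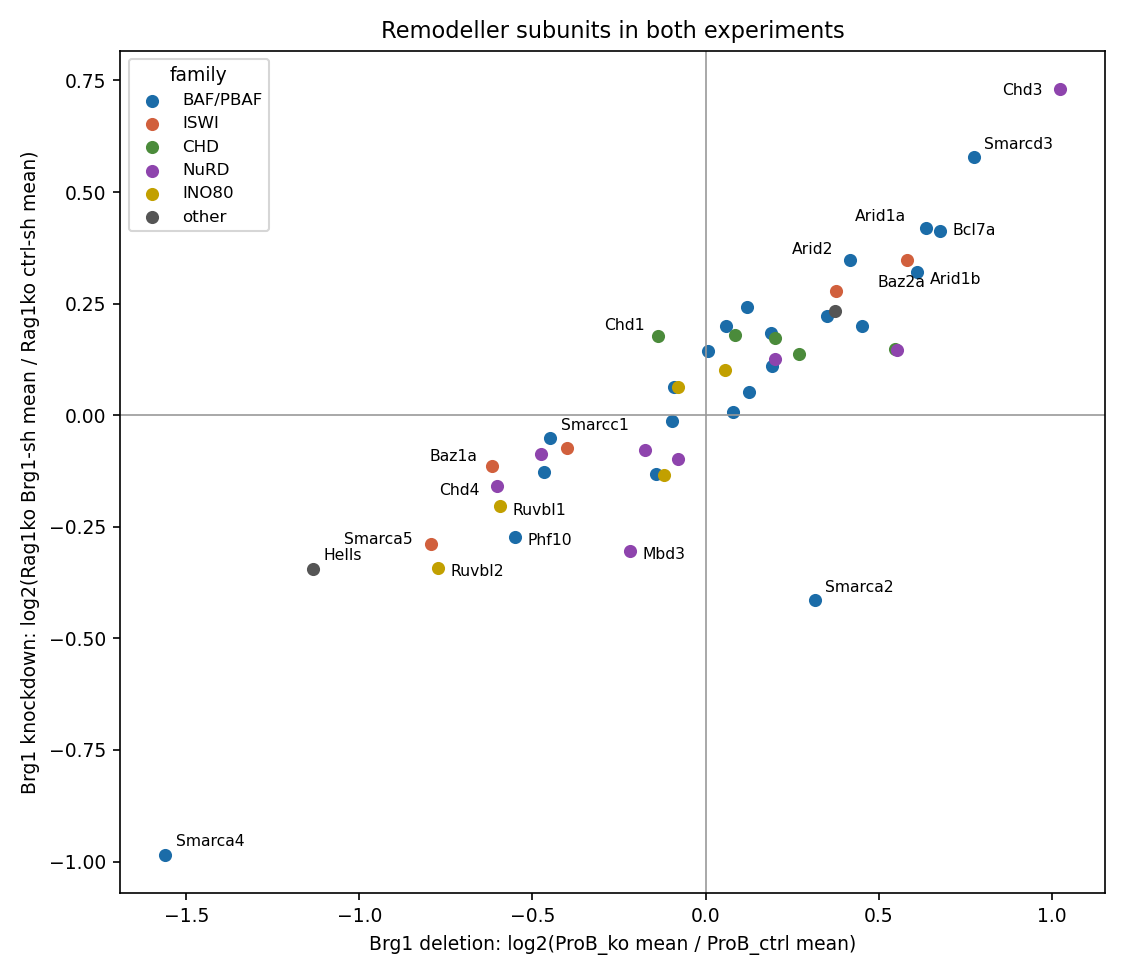
Authors' log2 fold change of each of the 47 members listed in both tables, for deletion (x axis, ProB_ko over ProB_ctrl) and knockdown (y axis, Rag1ko Brg1-sh over Rag1ko ctrl-sh), 1 point per gene, coloured by family. Smarca4 lies at the lower left, Chd3 at the upper right, and Smarca2 apart from the rest at the lower right.

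The experiments share no libraries, and the members' differences ran in the same direction in most cases. Without Smarca4, 42 of 46 members had the same sign in both (91.3%), against 82.9% of the 6995 genes with a mean of at least 200 in both tables. Pearson's r across these 46 genes was 0.84 and Spearman's rho 0.84, against 0.82 and 0.83 across the 6995 genes, given as a description since genes are not independent replicates. The difference was larger in size after deletion for 36 of the 46, as it was for 5568 of the 6995. The plot of both experiments shows the members along 1 diagonal, with Smarca2 off it.

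Among the core subunits of BAF, the part that the motor is mounted on, none was called in either experiment. Smarcc1 and Smarcc2, scaffold paralogs, had means on opposite sides of their controls. Smarcc1 had 3555 in ProB_ko and 4853 in ProB_ctrl (log2 fold change -0.45, unadjusted p 0.1572), and Smarcc2 had 3695 in ProB_ko and 2898 in ProB_ctrl (0.35, unadjusted p 0.3164), in the authors' deposited table. Smarcc2 made up 57.9% of the summed TPM of the pair in ProB_ko and 44.1% in ProB_ctrl, and 47.5% in Brg1-sh and 42.8% in ctrl-sh cells. Smarcd1, Smarcd2 and Smarcd3 are alternative subunits of that core. Smarcd1 had log2 fold changes of 0.12 after deletion and 0.24 after knockdown, and Smarcd2 had 0.13 and 0.05. Smarcd3, known from heart and muscle, was low, with 22 and 17 reads in the ProB_ko libraries and 14 and 9 reads in the ProB_ctrl libraries, and its limma interval ran from -0.48 to 2.04. Smarcb1 and Smarce1, the other core subunits, had log2 fold changes of -0.09 and -0.10 after deletion, and 0.06 and -0.01 after knockdown.

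The subunits that define which BAF form is assembled lay above their controls in 6 of 8 cases in each experiment, with none called. Among genes with a mean of at least 200, 3701 of 7726 lay above after deletion and 3165 of 7083 after knockdown. Arid1a, Arid1b, Arid2 and Pbrm1 have exon lengths over 8000 bases and lay above in both experiments. Among genes of such length and level, 588 of 988 lay above after deletion and 579 of 926 after knockdown. Arid1a and Arid1b, the large alternative ARID subunits of canonical BAF, had similar differences. Arid1a had 11282 and 9991 normalized reads in the ProB_ko libraries and 6729 and 6959 in the ProB_ctrl libraries in the most balanced split. Its log2 fold change in the authors' deposited table was 0.64 (adjusted p 0.6301) after deletion and 0.42 (adjusted p 1) after knockdown. Arid1b had means of 4592 in ProB_ko and 3005 in ProB_ctrl, and 2347 in Brg1-sh and 1879 in ctrl-sh cells. As both paralogs differed alike, the share of Arid1b in their sum was 28.2% in ProB_ko and 28.6% in ProB_ctrl.

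Arid2, Pbrm1, Phf10 and Brd7 mark the PBAF form. Arid2 had 2961 and 3368 normalized reads in ProB_ko, against 2544 and 2192 in ProB_ctrl, with no overlap and a limma log2 fold change of 0.42 ± 0.16 (SE, n = 2 each, adjusted p = 0.289). Phf10 had 467 and 612 in ProB_ko, against 856 and 723 in ProB_ctrl, also with no overlap, and a limma log2 fold change of -0.56 ± 0.21 (SE, n = 2 each, adjusted p = 0.283). The PBAF subunits thus did not lie on 1 side. Pbrm1, the bromodomain scaffold of PBAF, had means of 4236 in ProB_ko and 4218 in ProB_ctrl. Brd7 and its paralog Brd9, which marks non-canonical BAF, had log2 fold changes of -0.14 and 0.19 after deletion and of -0.13 and 0.11 after knockdown, and the libraries of both groups overlapped for each. Dpf2, a reader of histone marks in canonical BAF, had authors' log2 fold changes of 0.19 after deletion and 0.18 after knockdown.

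Of the subunits that bind the motor itself, Bcl7a had the largest difference. Bcl7a, a gene altered in B cell lymphomas, had 9491 and 8598 normalized reads in ProB_ko and 5214 and 6090 in ProB_ctrl in the most balanced split. Its authors' log2 fold change was 0.68 (unadjusted p 0.0353, adjusted p 0.5468) after deletion and 0.41 (adjusted p 1) after knockdown. Its paralogs Bcl7b and Bcl7c had log2 fold changes of 0.45 and 0.06 after deletion and of 0.20 and 0.20 after knockdown. Actl6a, the actin-related subunit, had 886 and 1321 in ProB_ko and 1759 and 1290 in ProB_ctrl, which overlapped. Ss18, the last of this group, had 1108 and 1334 in ProB_ko and 1276 and 1038 in ProB_ctrl, which also overlapped.

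**Figure D3:**
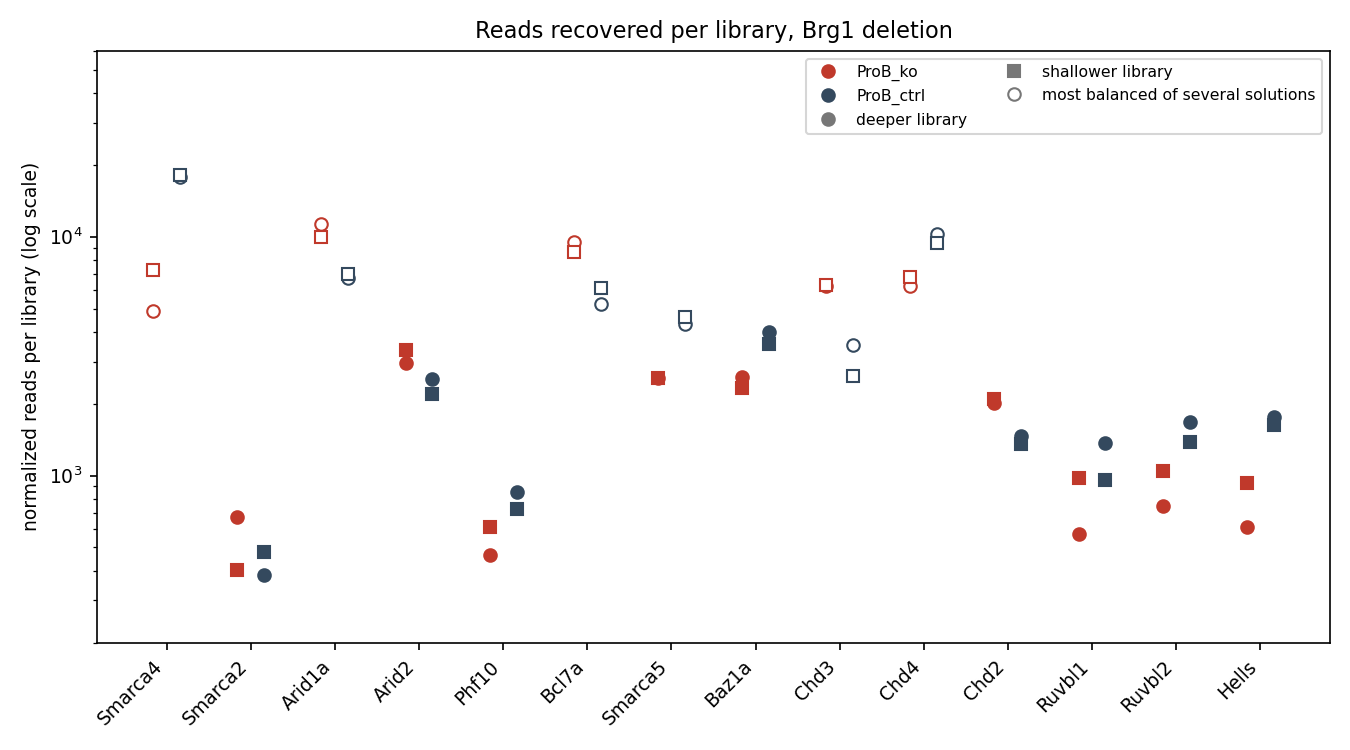
Normalized reads per library (log axis) of 14 members in the deletion experiment, with ProB_ko to the left of ProB_ctrl, circles for the deeper and squares for the shallower library. Open symbols are the most balanced of several splits. Smarca2 and Ruvbl1 overlap between groups and the other 12 genes, picked for the text, do not, where 48.2% of genes with 1 split do not overlap; 6 of the 12 (Smarca4, Arid1a, Bcl7a, Smarca5, Chd3 and Chd4) are apart in the most balanced split but not under every split.

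In the ISWI family, whose motors space nucleosomes evenly, the motor Smarca5 had 2568 and 2565 normalized reads in ProB_ko, a split with 1 solution. ProB_ctrl had 4294 and 4597 in the most balanced split. The authors' deposited table gives a log2 fold change of -0.79 (unadjusted p 0.0169, adjusted p 0.363), so Smarca5 was not called, and after knockdown it gives -0.29 (adjusted p 1). A pseudogene, Smarca5-ps, was listed apart with means of 0.864 in ProB_ko and 5.90 in ProB_ctrl, small beside the reads of the parent gene. Smarca1, the other ISWI motor, had 1 read and 0 reads in the ProB_ko libraries and 1 read in each ProB_ctrl library, under the floor of 3 counts, so no fold is given.

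The ISWI partners were split. Baz1a, the ACF1 subunit, had 2586 and 2327 normalized reads in ProB_ko, against 3972 and 3562 in ProB_ctrl. These did not overlap, and limma gave a log2 fold change of -0.62 ± 0.15 (SE, n = 2 each, adjusted p = 0.16), while the knockdown value in the authors' deposited table was -0.11. Baz1b, its paralog in the WICH complex, had log2 fold changes of -0.40 and -0.07. Baz2a, the NoRC subunit known from silencing of ribosomal DNA, had 0.58 and 0.35, and Bptf, the large NURF subunit, had 0.38 and 0.28, with none called.

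The NuRD complex joins a CHD motor to histone deacetylases, and its motors lay on opposite sides. Chd3 had 6207 and 6271 normalized reads in ProB_ko, against 3533 and 2606 in ProB_ctrl, in the most balanced split. Its log2 fold change in the authors' deposited table was 1.02, the highest of the members (unadjusted p 0.002, adjusted p 0.1106), so it was not called. After knockdown its means were 2931 with Brg1-sh and 1766 with ctrl-sh, with a log2 fold change of 0.73 (adjusted p 1) in the authors' deposited table. Chd4, the other NuRD motor, had 6200 and 6768 in ProB_ko, against 10257 and 9428 in ProB_ctrl, in the most balanced split. Its authors' log2 fold change was -0.60 (adjusted p 0.7172) after deletion and -0.16 (adjusted p 1) after knockdown.

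**Figure D4:**
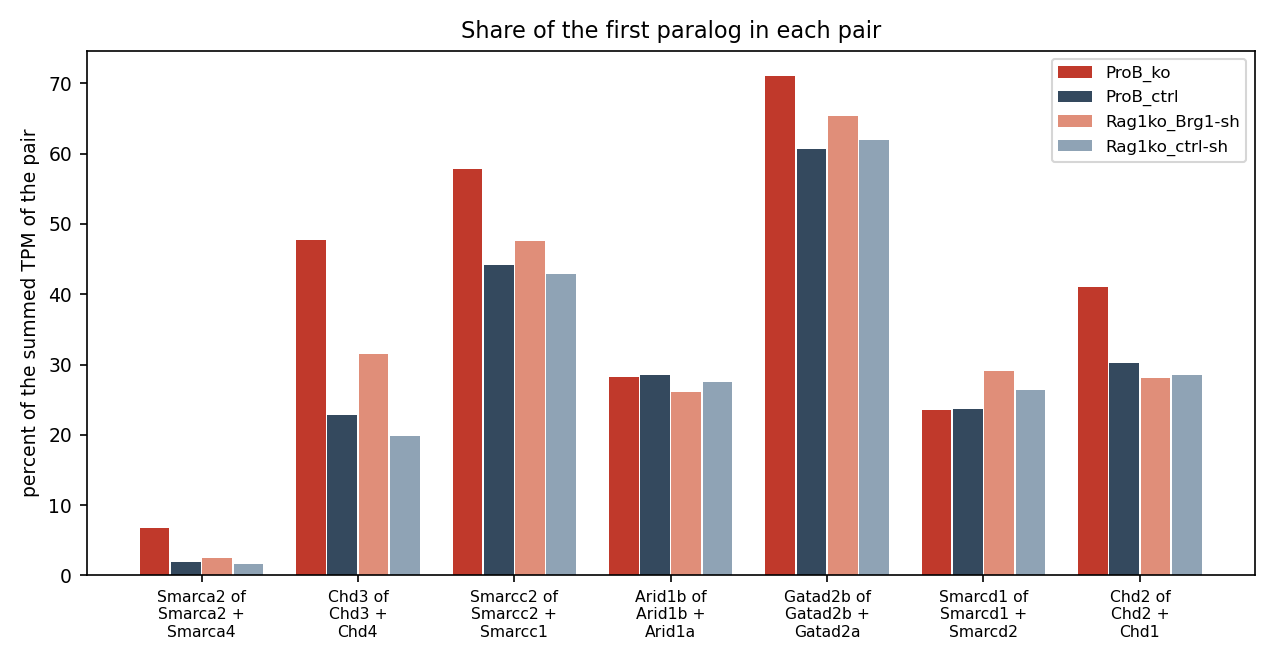
Share of the first named paralog in the summed TPM of each of 7 pairs, in percent, 1 bar per group from the authors' means, so no error bars. Chd3 makes up 47.8% of its pair in ProB_ko and 22.8% in ProB_ctrl, while the Arid1b bars differ little.

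Chd3 thus made up 47.8% of the summed TPM of both NuRD motors in ProB_ko and 22.8% in ProB_ctrl, and 31.4% in Brg1-sh and 19.8% in ctrl-sh cells. Their sum was 437 TPM in ProB_ko and 422 TPM in ProB_ctrl, and 346 TPM in Brg1-sh and 308 TPM in ctrl-sh cells. The shares of paralogs, plotted for 7 pairs, have no test. Among the NuRD partners, Gatad2a had 1265 and 1200 normalized reads in ProB_ko, against 1738 and 1687 in ProB_ctrl, with no overlap and a limma log2 fold change of -0.48 ± 0.15 (SE, n = 2 each, adjusted p = 0.219). Gatad2b, its paralog, had 1031 and 1070 in ProB_ko, against 951 and 877 in ProB_ctrl, on the other side and also with no overlap. Mta1, Mta2 and Mta3, which link the deacetylases to the complex, had authors' log2 fold changes of -0.17, -0.08 and 0.55 after deletion and of -0.08, -0.10 and 0.15 after knockdown. Mta3, at 517 and 376 in ProB_ko and 295 and 313 in ProB_ctrl, was the least abundant of the trio. Mbd3, the methyl-binding-domain subunit, had -0.22 and -0.30, and no NuRD partner was called.

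The CHD ATPases outside NuRD were above their controls in 4 of 5 cases after deletion and in 5 of 5 after knockdown, with none called. Among genes with a mean of at least 200, 3701 of 7726 were above after deletion and 3165 of 7083 after knockdown. Among those with an exon length over 8000 bases, as all 5 have, 588 of 988 and 579 of 926 were above. Chd2, which acts on transcribed chromatin, had 2017 and 2100 normalized reads in ProB_ko, against 1463 and 1356 in ProB_ctrl. These did not overlap, and limma gave 0.55 ± 0.15 on the log2 scale (SE, n = 2 each, adjusted p = 0.181). Chd1, its closest paralog, had authors' log2 fold changes of -0.14 after deletion and 0.18 after knockdown. Chd7, Chd8 and Chd9, which form a subfamily, had 0.27, 0.09 and 0.20 after deletion and 0.14, 0.18 and 0.17 after knockdown. Chd7 had 365 and 198 normalized reads in ProB_ko and 270 and 197 in ProB_ctrl, so the groups overlapped.

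In the INO80 group, which exchanges histone H2A variants, the motors differed little and the shared AAA+ ATPases had lower means in both experiments, with none called. Ino80, Srcap and Ep400 had authors' log2 fold changes of -0.12, 0.06 and -0.08 after deletion and of -0.13, 0.10 and 0.06 after knockdown. A second identifier, also named Srcap, had means of 864 in ProB_ko and 705 in ProB_ctrl, and reads of this locus may be divided between the identifiers. Ruvbl2 had 743 and 1048 normalized reads in ProB_ko, against 1683 and 1378 in ProB_ctrl, with no overlap. Its authors' log2 fold change was -0.77 (unadjusted p 0.0169, adjusted p 0.363) after deletion and -0.34 (adjusted p 1) after knockdown. Ruvbl1, its partner in the ring, had 568 and 972 in ProB_ko and 1364 and 960 in ProB_ctrl, which overlapped, and authors' log2 fold changes of -0.59 and -0.20. Neither was called.

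Hells, an ATPase known to be needed for DNA methylation and abundant in dividing lymphoid cells, was the only member besides Smarca4 that was called. Hells (ENSMUSG00000025001, mm10, chr19:38930915-38971051) had 609 and 933 normalized reads in the ProB_ko libraries, against 1753 and 1629 in the ProB_ctrl libraries. Both Brg1-deleted libraries lay below both controls. In the authors' deposited table it fell 2.19-fold (log2 fold change -1.13, adjusted p 0.0482), close to the threshold. limma on the recovered reads gave -1.16 ± 0.24 (SE, n = 2 each), with a 95% interval of -1.78 to -0.55. Its adjusted p by limma was 0.138, so Hells was not called, as none of the 16973 genes tested was. After knockdown the means were 1225 with Brg1-sh and 1555 with ctrl-sh, for which the authors' deposited table has a log2 fold change of -0.34 (adjusted p 1). Atrx, a motor that deposits histone H3.3 with Daxx, had authors' log2 fold changes of 0.37 and 0.23 and was not called.

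**Figure D5:**
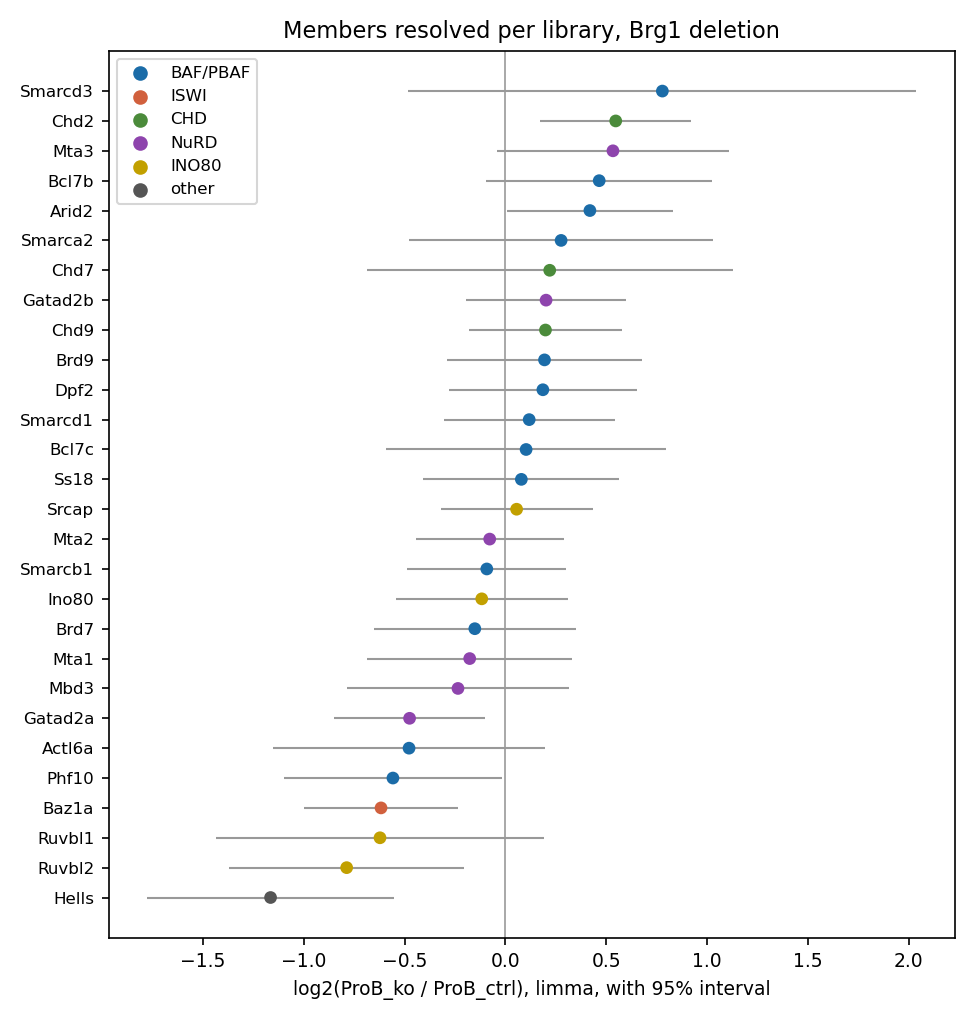
limma log2 fold change (ProB_ko over ProB_ctrl) with its 95% interval for the 28 members whose reads had 1 split in both groups and a mean of at least 1, coloured by family. The intervals of 7 members exclude 0, Hells the lowest at -1.16, and none of the 28 passed the adjusted threshold; with 1 library left out, between 1 and 7 members had an unadjusted p under 0.05.

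Of the 28 members with 1 split and a mean of at least 1, the libraries did not overlap in 12, with 7 higher and 5 lower in ProB_ko. Over all 16973 genes resolved in this way, 48.2% did not overlap, 24.6% higher and 23.6% lower, so such separation was frequent in these libraries. With the most balanced split for every member, 15 of 47 were higher and 13 lower without overlap, against 24.7% and 24.3% of genes (49.0% in all), and this choice favours separation. The 7 higher were Smarcd3, Arid2, Bcl7b, Chd2, Chd9, Mta3 and Gatad2b, and the 5 lower were Phf10, Baz1a, Gatad2a, Ruvbl2 and Hells. limma called 0 of the 28, as it called 0 of the 16973 genes (0.0%), with 7 members and 16.9% of genes at an unadjusted p under 0.05. Those 7 became 3 without the deeper ProB_ko library, 1 without the deeper ProB_ctrl library and 4 without the shallower ProB_ctrl library, in fits where the lone library of a group is assumed to vary like the other group.

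Most members with long transcripts lay above their controls, as did most long genes. Of the 17 members with an exon length over 8000 bases, leaving out Smarca4, 13 were above their controls after deletion and 15 after knockdown. Among all genes of such length and a mean of 200 or more, 588 of 988 were above after deletion and 579 of 926 after knockdown. Pearson's r between log2 exon length and log2 fold change across members was 0.25 (n = 46) after deletion and 0.37 (n = 45) after knockdown. These members had a mean of at least 10 and left out Smarca4. Across all genes with a mean of 200 or more, a higher minimum, r was 0.14 and 0.22. The large ARID, CHD, Bptf, Baz2a and Atrx genes are among these long members, as are Baz1b and Ep400. Of them, Baz1b, Ep400, Chd1 and Chd4 lay below their controls after deletion. The part of transcript length in the values of the long members was not tested.

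Other known subunits of the same complexes, and related ATPases, were looked up from a list of 60 symbols. Of the 58 listed after deletion, 0 were called higher and 1 lower (1.72%, against 1.47% of all listed genes), with a median log2 fold change of -0.01. Of the 57 listed after knockdown 0 were called by the authors' test, against 0.218% of all listed genes, and 1 had an unadjusted p under 0.05. The gene called after deletion was Uchl5, the INO80-bound deubiquitinase, with means of 281 in ProB_ko and 735 in ProB_ctrl, with a log2 fold change of -1.39 (adjusted p 0.0184) in the authors' deposited table. After knockdown Uchl5 had 466 with Brg1-sh and 666 with ctrl-sh (adjusted p 1).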

How the data were processed

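Of 26 samples, the 10 RNA libraries were used, and the other 16 were not analysed here. Per the labels' protocols, polyA RNA was made into strand-marked libraries by dUTP. The submitters' processing notes name CASAVA, RSEM and DESeq, with mm10. The mean columns hold a signal, normalized reads averaged per group by the authors. The log2 fold change, the signed linear fold (read as a score), the p-value and the adjusted p-value are the authors', per the file headers. The exon length is another value the authors deposited. The authors mark 24 of the 48 members as confounded (50.0%, against 47.1% of all genes listed for deletion), Smarca4 and Smarca2 among them, which no source used here defines.

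All calls rest on the adjusted p that the authors deposited. Whole reads per library were recovered from the deletion means within 6e-05. All 19404 genes had a solution, and 95.6% had 1 in both groups. Of random values 2.7% and 2.75% had a solution, but these values were drawn below the level of nearly every member. More splits can fit at higher means, so those shares do not check the recovery at the members' level. Genes with 1 solution and a mean of at least 1 entered limma 3.58.1 (R 4.3.3, trend option), as log2 of (reads + 0.5) divided by the size factor. TPM is the mean over exon length, scaled to 1000000. Python 3.11.15, numpy 2.4.6, pandas 2.3.3 and matplotlib 3.10.9 were used. Recovery and limma were also run on simulated data. Those outcomes are not given here and are not used as support for either step. Members named were Smarca4, Smarca2, all called members, all paralogs and the 8 with the lowest p per table. The members and lists were chosen with earlier results of these data known. Alternatives were other thresholds, filters, scalings, pseudocounts, leaving out libraries, Smarca4 or confounded genes, and limma in place of the deposited calls.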

Additional observations from a re-analysis of the deposited data

How the results depend on the processing

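Of the members called lower after deletion, 2 became 1 without genes marked as confounded (Hells, since Smarca4 carries that mark) and 1 without Smarca4, an alternative added after seeing the data, and limma on recovered reads called 0, testing 28 members, Hells but not Smarca4 among them. After knockdown the 1 called became 0 in both of these settings that leave out genes. An adjusted p under 0.1, an adjustment over listed genes, a 1.5-fold minimum and a level minimum left these counts as they were. Taking the most balanced split of every member, also added after seeing the data, gave 15 higher and 13 lower members without overlap in place of 7 and 5, among 47 members. Smarce1 after knockdown changed sign, to 0.031, when scaled to the totals of the group means, against -0.014. Smarca2 in recovered reads ranged from -0.093 to 0.65 when 1 library was left out, the lowest without the deeper ProB_ko library and the highest without the shallower one. limma called 0 genes in all, members included, so a count of 0 members in its other settings shows no stability. Without the shallower ProB_ctrl library it called 42 genes, none of them members, with the lone library assumed to vary like the other group. No paired analysis was possible because the columns and the recovered libraries carry no replicate numbers. Leaving out a library was not possible for the deposited calls or the knockdown means.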

Other observations

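Among the 58 other subunits, 8 had an unadjusted p under 0.05 after deletion in the authors' deposited table (13.8%, against 9.52% of all listed genes and 16.3% of those with a mean of at least 200), and 1 of 57 did after knockdown (1.75%, against 2.74%). The 8 are named here after their values were seen, as values and not as a pattern of the list, and of these Uchl5 alone was called. Gltscr1 and Gltscr1l, alternative subunits of non-canonical BAF, had means of 4487 and 1147 in ProB_ko and 2273 and 557 in ProB_ctrl, with adjusted p-values of 0.13 and 0.1077. After knockdown their log2 fold changes were 0.41 and 0.41. Rbbp7, a histone chaperone of NuRD, had 1394 in ProB_ko and 2921 in ProB_ctrl (log2 fold change -1.07, adjusted p 0.0709), and -0.47 after knockdown. The NuRD deacetylase genes Hdac1 and Hdac2 had log2 fold changes of -0.78 and -0.67 after deletion and of -0.16 and -0.22 after knockdown. Cecr2, a partner of ISWI motors, and Mbd2, the paralog of Mbd3, had 0.71 and 0.73 after deletion and 0.31 and 0.27 after knockdown.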
